A study of Mus musculus with 2 samples.

Results

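The vascular compartment of the mouse adrenal gland was described with 43 genes of the endothelium, the lymphatic endothelium, pericytes and smooth muscle, and of the growth factors and receptors that act on them. The genes were taken from a list of symbols chosen for their known roles. The rule held no measured value, but earlier results of these data were known when the list was chosen. All 43 were found among the 55536 annotated genes of the tables. The tissue was the adrenal gland of B6CASTF1/J females, an F1 hybrid strain, at an age of 36 days, profiled by total RNA-seq in 2 libraries, labelled biological replicates 2 and 1 of 1 group. A library took 300 ng of ribosome-reduced RNA with ERCC spike-ins through a directional kit. Because strain, sex, age and tissue were shared and no agent was given, the only contrast was between replicate 2 and replicate 1, and with 1 library a side it has no test. The labels disagree on whether the libraries came from different animals (their descriptions carry the same animal number, their characteristics different ones, with the same donor identifier), so each SD measures the spread between 2 libraries, which may be technical.

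The adrenal gland is among the most densely vascularised endocrine organs: steroid-producing cortical cells and catecholamine-producing chromaffin cells each lie against thin-walled, fenestrated capillaries. Vascular endothelial growth factors bind receptor tyrosine kinases on endothelial cells, with neuropilins as co-receptors, and drive the growth, survival and permeability of these vessels. Angiopoietins act on the Tie2 receptor to stabilise vessels, and endothelial PDGF-B recruits pericytes that carry PDGF receptor beta. In bulk tissue, a lower level of a gene can mean fewer cells of a type or less RNA per cell, and these cannot be told apart here.

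The gene tables held 38701795 expected counts in replicate 2 and 35684781 in replicate 1, and the 43 genes took 0.172% of the counts assigned to annotated genes in replicate 2 and 0.170% in replicate 1. The labelled tissue carried its defining markers: 6 of 6 cortical and 5 of 5 chromaffin markers reached 1 TPM, the unit of transcript abundance scaled for transcript length and library total, in both libraries. Cortical markers summed to 16733 TPM in replicate 2, against 16266 TPM in replicate 1, and chromaffin markers to 1110 TPM in replicate 2, against 1480 TPM in replicate 1. Markers of other tissues stood out in replicate 1: skeletal muscle markers summed to 1.55 TPM in replicate 2, against 224.9 TPM in replicate 1, and hepatocyte markers to 1.61 TPM in replicate 2, against 29.3 TPM in replicate 1. Adipocyte markers summed to 1398 TPM in replicate 2, against 1484 TPM in replicate 1, with 5 of 6 genes detected, and red blood cell markers to 1876 TPM in replicate 2, against 2383 TPM in replicate 1.

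Of the 43 vascular genes, 40 were at 1 TPM or more in both libraries, the level taken here as detected. The 3 under that level were Pgf, Angpt2 and Cnn1. The median of the 43 means was 9.24 TPM, beside 10.3 TPM over the 11662 detected nuclear protein-coding genes, and the genes lay on both sides of that level (20 at or above it, 23 below). Vegfa, the growth factor, was the highest at 94.0 ± 8.87 TPM (SD, n = 2), above 95.3% of detected protein-coding genes. Plvap, which forms the diaphragms of fenestrated capillaries, was second at 60.1 ± 1.14 TPM.

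**Figure D1:**
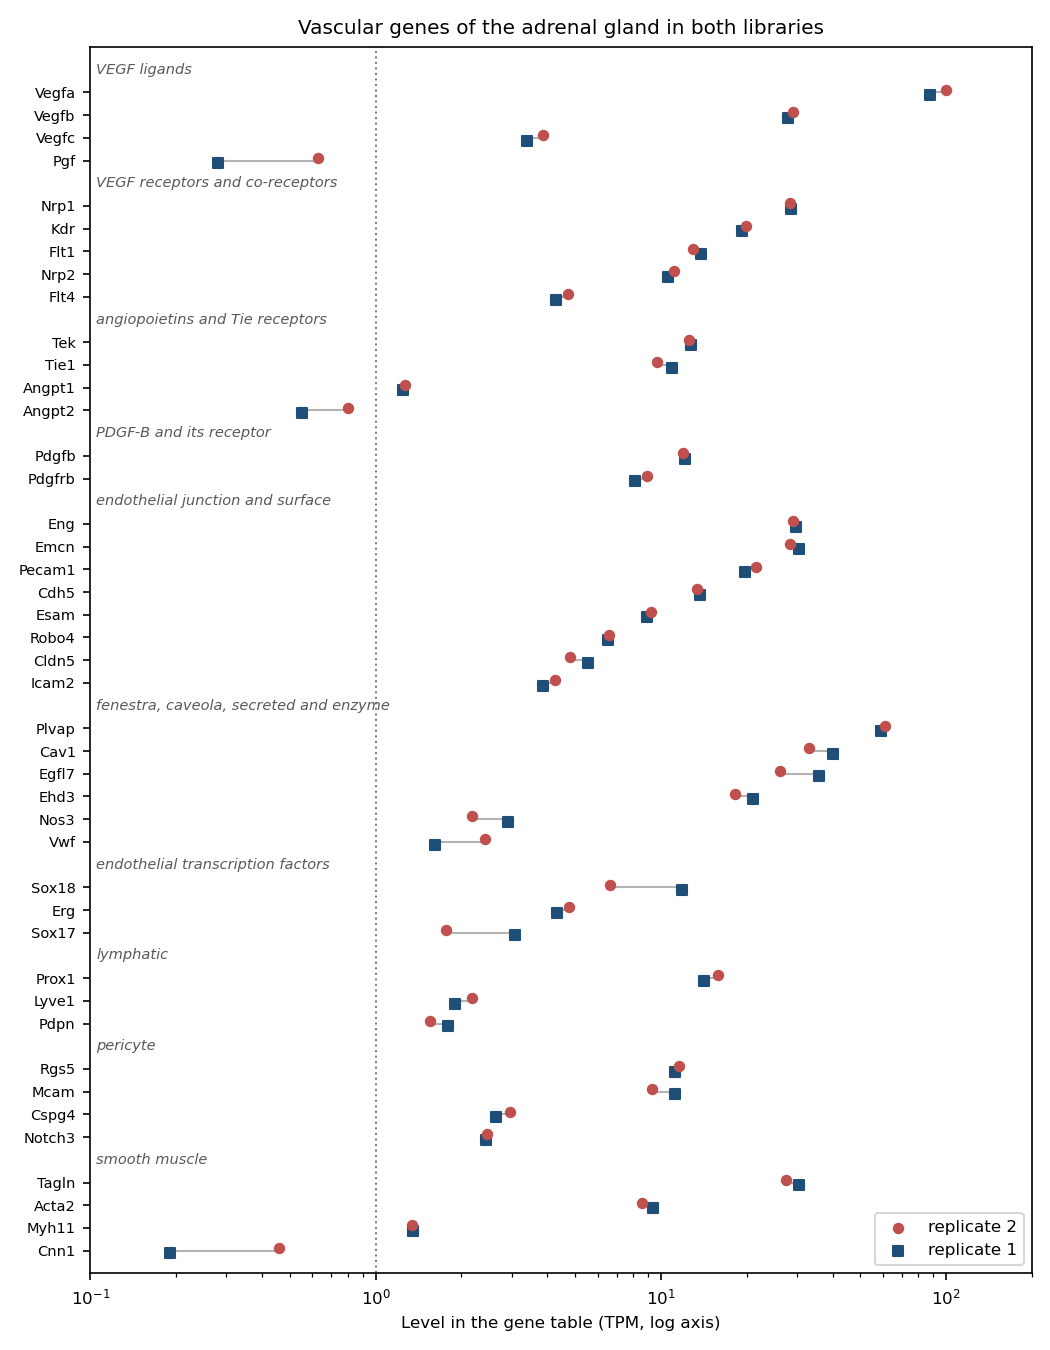
Level of each of the 43 genes in TPM on a log axis, grouped by role and ordered by mean within a role; circles are replicate 2 and squares replicate 1, and the dotted line marks 1 TPM. Most pairs of symbols nearly coincide, Vegfa and Plvap lie farthest to the right, Pgf, Angpt2 and Cnn1 lie left of the line, and Sox17 and Sox18 are visibly lower in replicate 2.

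Differences between the libraries were read from the ratio of TPM + 0.1, replicate 2 over replicate 1, for genes with 200 or more counts summed over both libraries. Of the 43 genes 40 passed that filter, and Pgf, Angpt2 and Cnn1 did not. Only Sox17 and Sox18 were 1.5-fold or more apart, 2 of 40 (5%), beside 3.57% of the 12280 genes that passed the filter. By a second rule, that the TPM intervals deposited with the tables do not overlap, 9 of 40 vascular genes (22.5%) were apart, beside 15% of the same 12280 genes. The 9 were Vegfa, Prox1 and Pdgfrb, higher in replicate 2, and Tie1, Ehd3, Nos3, Egfl7, Sox17 and Sox18, lower in replicate 2. The median log2 ratio was 0.00 over the 40 genes and 0.04 over all 12280, and the SD of the log2 ratio was 0.25 and 0.37. The vascular genes therefore had no common shift: 20 were higher and 20 lower in replicate 2.

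**Figure D2:**
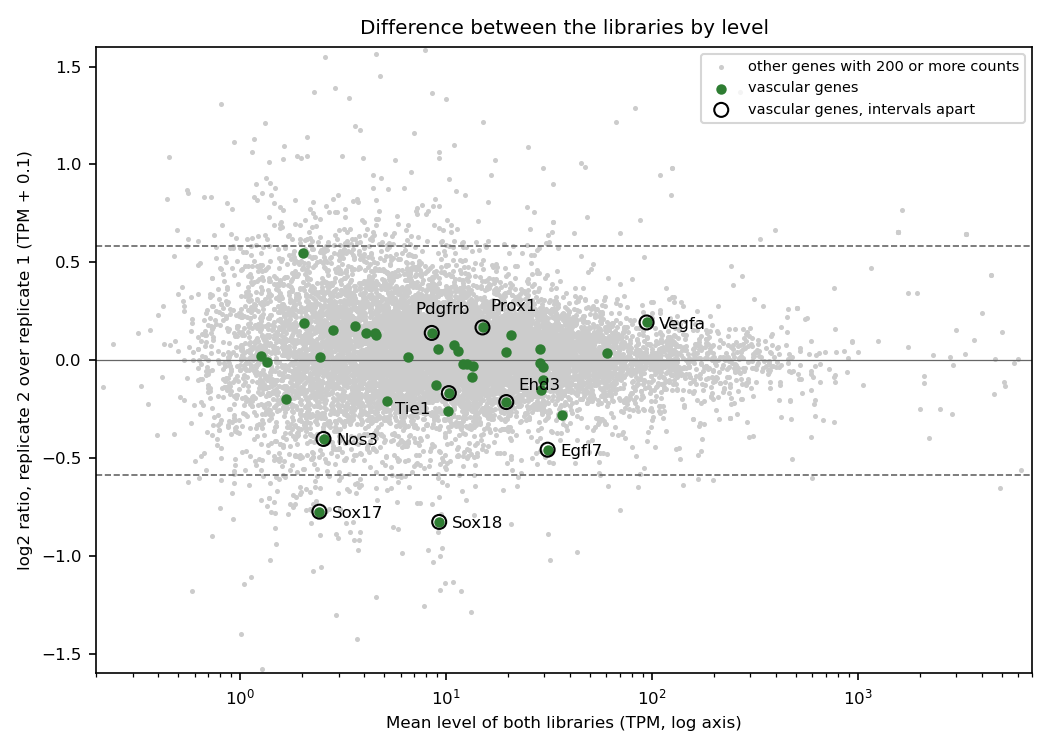
Log2 ratio of replicate 2 over replicate 1 against the mean level in TPM (log axis) for genes with 200 or more summed counts; grey points are all such genes except 65 outside the drawn range, green points the 40 vascular genes, and rings mark the 9 whose intervals did not overlap. Dashed lines mark 1.5-fold, and only Sox17 and Sox18 among the green points lie past one.

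Among the VEGF ligands, Vegfa stood well above its relatives. It had 100.3 TPM in replicate 2 and 87.7 TPM in replicate 1 (chr17:46016993-46032369, minus strand, mm10). Its level was 3.45 times that of Vegfb in replicate 2 and 3.14 times in replicate 1, and in the tables derived straight from the reads 3.66 times in replicate 2 and 3.27 times in replicate 1. Vegfb, a ligand of Flt1 alone among the VEGF receptor kinases, had 29.1 TPM in replicate 2 and 28.0 TPM in replicate 1. Transcripts without a coding sequence took 32.3% of Vegfa TPM (replicate 2) and 47.8% (replicate 1). For Vegfb, transcripts not annotated as protein-coding took 1.31% (replicate 2) and 1.75% (replicate 1). Ratios of gene TPM therefore overstate the lead of Vegfa in coding transcripts. Coding transcripts of Vegfa summed to 67.9 TPM (replicate 2) and 45.8 TPM (replicate 1), still above Vegfb. Vegfc, the main lymphatic growth factor and a ligand of Flt4, had 3.85 TPM in replicate 2, against 3.40 TPM in replicate 1. Pgf, placental growth factor and likewise a ligand of Flt1, was close to the limit of the data. It had 31 counts in replicate 2 and 14 in replicate 1, or 0.63 TPM in replicate 2, against 0.28 TPM in replicate 1, and counts this low did not enter the comparison of the libraries.

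For Vegfa, the size of the difference between libraries depended on what was measured. On the TPM scale the log2 ratio was 0.19, and by the read-derived quantification 0.15. As a share of all counts, Vegfa in replicate 2 was at 1.32 times its replicate 1 share (8264 counts, against 5757 in replicate 1; exact 95% interval 1.28 to 1.37, for counting error only). Every one of these measures had Vegfa higher in replicate 2, by less than 1.5-fold.

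The protein forms of Vegfa differ in how tightly they hold to the extracellular matrix. The 120-residue form diffuses freely, the 188-residue form is held by heparan sulfate, and the 164-residue form lies between them and binds neuropilin. They arise by splicing after a shared block that ends at base 46024065 of chromosome 17, and these forms differ in which block follows. The sequences across that junction are shown because reads that cross it or lie in the blocks beyond can tell the forms apart. The annotated transcripts are 2765 bases long for Vegfa-201, 3451 for Vegfa-202 and 1973 for Vegfa-207. They thus also differ outside these blocks, and reads there can weigh in the share of each form. Lower case is the end of the shared block and capitals are the first bases of the block that follows, in transcript sense (minus strand of mm10), from the GENCODE M21 transcripts.
Vegfa-201, the 120-residue form: aacaaagccagaaaaATGTGACAAGCCAAG
Vegfa-202, the 164-residue form: aacaaagccagaaaaTCACTGTGAGCCTTG
Vegfa-207, the 188-residue form: aacaaagccagaaaaAAAATCAGTTCGAGG
The 164-residue form adds a block of 132 bases (chr17:46020991-46021122), worth 44 residues, to the 120-residue form. The 188-residue form adds that block and a further 72 bases (chr17:46022277-46022348), worth 24 residues. In Vegfa-203 and Vegfa-204, annotated with other coding lengths, the shared block is followed at the same base as in Vegfa-207. The junction printed for Vegfa-207 therefore does not by itself mark the 188-residue form. Form names count the mature protein, without the 26-residue signal peptide. Vegfa-202 and Vegfa-207 are annotated with 368 and 392 residues because their annotated start lies 178 residues upstream.

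The 164-residue form was the most abundant coding class in both libraries. It had 37.9 TPM in replicate 2 and 30.4 TPM in replicate 1, which was 37.8% of Vegfa TPM in replicate 2 and 34.6% in replicate 1. The 120-residue class had 15.9 TPM in replicate 2, against 7.75 TPM in replicate 1, and the 188-residue class 14.1 TPM in replicate 2, against 7.63 TPM in replicate 1. All 3 were higher in replicate 2, with deposited intervals that did not overlap for Vegfa-201, Vegfa-202 and Vegfa-207. The 5 retained-intron transcripts, which carry no annotated coding sequence, went the other way, with 32.4 TPM in replicate 2 and 42.0 TPM in replicate 1. Of these, Vegfa-209 (14.8 TPM in replicate 2, 21.3 TPM in replicate 1) had intervals apart and Vegfa-210 (14.4 TPM in replicate 2, 18.4 TPM in replicate 1) did not. Summed over coding transcripts, Vegfa in replicate 2 was at 1.48 times its replicate 1 level (67.9 TPM, against 45.8 TPM in replicate 1), and 1.37 times in the read-derived table. The transcripts without a coding sequence were at 0.77 times their replicate 1 level, and 0.83 times in the read-derived table. The sums over coding and over intron-retaining transcripts of Vegfa thus differed in opposite directions in both quantifications. Introns are also held by unspliced RNA in a total RNA library, and its part in these sums was not tested.

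Within the coding transcripts, the 164-residue class made up 55.9% in replicate 2 and 66.4% in replicate 1. The 188-residue class made up 20.7% in replicate 2 and 16.7% in replicate 1, and by the read-derived quantification 23.7% in replicate 2 and 17.4% in replicate 1. The 120-residue class made up 23.4% in replicate 2 and 16.9% in replicate 1, but by the read-derived quantification 21.7% in replicate 2 and 23.1% in replicate 1, so the order of the libraries for this class turned with the table. The 164-residue class led the others in each library and each table.

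**Figure D3:**
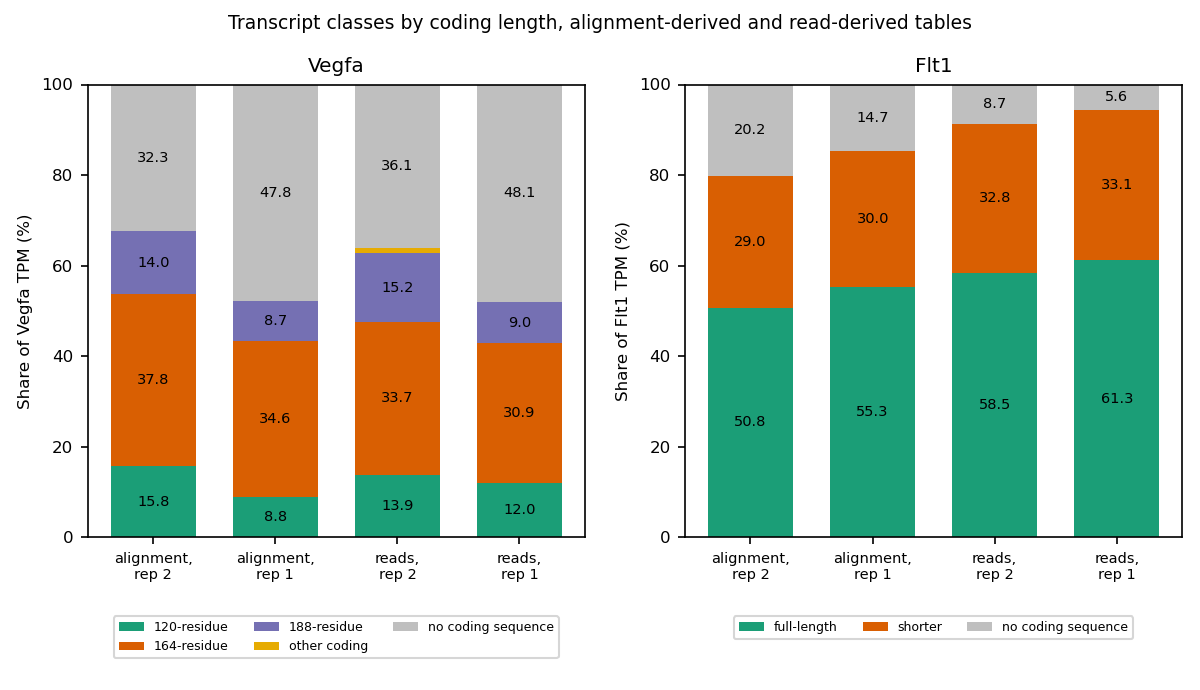
Share of Vegfa TPM (left) and Flt1 TPM (right) in each transcript class, in percent; each bar is 1 library, replicate 2 left of replicate 1, first in the alignment-derived and then in the read-derived transcript tables. The 164-residue class is the largest coding class of Vegfa in all 4 bars, the grey share without coding sequence is smaller in replicate 2, and the full-length and shorter forms of Flt1 keep nearly the same proportion in all 4 bars.

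The VEGF receptors and neuropilins were all detected. None differed by 1.5-fold or had intervals apart, beside 3.57% and 15% of all 12280 genes compared. Nrp1, a co-receptor for VEGF and semaphorins, led with 28.4 TPM in replicate 2 and 28.7 TPM in replicate 1. Kdr, the main signalling receptor for VEGF-A, had 19.9 TPM in replicate 2, against 19.3 TPM in replicate 1. Flt1, which binds VEGF-A more tightly than Kdr but signals weakly, had 13.0 TPM in replicate 2 and 13.8 TPM in replicate 1. The pairs of values lie within 1 TPM of each other, so these receptors were at nearly the same level in both libraries. Nrp2, the neuropilin of veins and lymphatics, had 11.1 TPM in replicate 2 and 10.6 TPM in replicate 1. Flt4, the receptor for VEGF-C, had 4.73 TPM in replicate 2, against 4.29 TPM in replicate 1. The level of Kdr was 1.53 times that of Flt1 in replicate 2 and 1.40 times in replicate 1, and it was 4.20 times that of Flt4 in replicate 2 and 4.49 times in replicate 1. Over all its transcripts, the ligand Vegfa was at 5.04 times the Kdr level (replicate 2) and 4.55 times (replicate 1). Transcripts without a coding sequence took 32.3% (replicate 2) and 47.8% (replicate 1) of Vegfa TPM. For Kdr, transcripts not annotated as protein-coding took 2.92% (replicate 2) and 2.80% (replicate 1), so the ratio is smaller for coding transcripts.

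Flt1 is made as a membrane receptor and as a secreted form that holds ligand away from Kdr. The secreted form is known to arise when a splice is left out and the transcript reads on into the following intron. In GENCODE M21, Flt1-202 encodes 1333 residues and Flt1-203 encodes 688, and they share 657 whole residues before they part at base 147639225 of chromosome 5. The sequences across that point are shown because they are the start of what distinguishes the forms. Lower case is shared, and capitals are the bases that follow in each transcript (minus strand of mm10).
Flt1-202, full-length: aagttctcgttagagATTCGGAAGCGCCAC
Flt1-203, shorter: aagttctcgttagagGTGAGCACTGCGGCA
In Flt1-203 the capitals run on in the genome past the end of the shared block, for 92 coding bases, and open with GT, the letters with which most introns begin.

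Full-length Flt1 had 6.59 TPM in replicate 2 and 7.62 TPM in replicate 1, with intervals apart. The shorter form had 3.77 TPM in replicate 2, against 4.13 TPM in replicate 1, with intervals that overlapped. The ratio of the shorter to the full-length form was 0.572 in replicate 2 and 0.542 in replicate 1, and by the read-derived quantification 0.561 in replicate 2 and 0.541 in replicate 1. Of the TPM assigned to coding transcripts, the shorter form took 36.4% in replicate 2 and 35.1% in replicate 1, more than 1 in 3 in each library. It is told apart by bases that read on into the intron, which unspliced RNA in a total RNA library also holds. The part of such RNA in these shares was not tested. Transcripts without a coding sequence made up the rest, with 2.62 TPM in replicate 2 against 2.03 TPM in replicate 1.

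In the angiopoietin and Tie group the receptors were far above the ligands. Tek, which encodes Tie2, had 12.5 TPM in replicate 2 and 12.7 TPM in replicate 1. Tie1, an orphan receptor that modulates Tie2, had 9.69 TPM in replicate 2, against 10.9 TPM in replicate 1, with intervals apart and a log2 ratio of -0.17. Angpt1, the agonist of Tie2 made mainly by mural and stromal cells, had 1.27 TPM in replicate 2 and 1.25 TPM in replicate 1. Tek was therefore at 9.87 times the level of Angpt1 in replicate 2 and 10.2 times in replicate 1. Angpt2, the context-dependent antagonist released by endothelial cells, had 0.80 TPM in replicate 2, against 0.55 TPM in replicate 1 (107 counts in replicate 2, 69 counts in replicate 1). The ratio of Angpt1 to Angpt2 was above 1 in both libraries, at 1.59 in replicate 2 and 2.27 in replicate 1. In the read-derived table it was 1.11 in replicate 2 and 1.71 in replicate 1. It rests on an Angpt2 value from counts too low for the comparison of the libraries.

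The ligand and receptor that link endothelium and pericytes were present at similar levels. Pdgfb had 11.97 TPM in replicate 2 and 12.12 TPM in replicate 1. Pdgfrb, its receptor on pericytes and fibroblasts, had 8.92 TPM in replicate 2, against 8.09 TPM in replicate 1, with intervals apart and a log2 ratio of 0.14. The level of Pdgfb was 1.3 times that of Pdgfrb in replicate 2 and 1.5 times in replicate 1. Markers of capsule and fibroblasts, which can also carry Pdgfrb, summed to 199.4 TPM in replicate 2 and 223.3 TPM in replicate 1, with 7 of 8 detected. Their part in the level of Pdgfrb was not tested.

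Genes of endothelial junctions and surface were detected for 8 of 8. None was past 1.5-fold or had intervals apart, beside 3.57% and 15% of all 12280 genes compared. Eng and Emcn were the highest, at nearly the same level. Eng, a co-receptor for TGF-beta family ligands, had 29.2 TPM in replicate 2 and 29.9 TPM in replicate 1. Emcn, a sialomucin of capillaries and veins, had 28.4 TPM in replicate 2, against 30.5 TPM in replicate 1. Pecam1, the adhesion molecule CD31, had 21.6 TPM in replicate 2, against 19.8 TPM in replicate 1, and its log2 ratio of 0.13 was -0.13 in the read-derived table. These 3 genes differed little between the libraries, and for Pecam1 the direction was not fixed. Cdh5, the VE-cadherin of adherens junctions, had 13.4 TPM in replicate 2 and 13.7 TPM in replicate 1. Esam, a junctional adhesion molecule, had 9.27 TPM in replicate 2, against 8.91 TPM in replicate 1. Robo4, a Roundabout family receptor of endothelium, had 6.58 TPM in replicate 2, against 6.51 TPM in replicate 1. Icam2, a leukocyte ligand, had 4.27 TPM in replicate 2, against 3.87 TPM in replicate 1. These junction genes again lay close together in both libraries. Cldn5, the claudin that seals tight junctions of brain vessels, had 4.79 TPM in replicate 2 and 5.56 TPM in replicate 1.

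Genes of fenestrae, caveolae and secretion held some of the highest and some of the lowest endothelial levels. Plvap had 60.9 TPM in replicate 2 and 59.3 TPM in replicate 1, which was 12.7 times the level of Cldn5 in replicate 2 and 10.7 times in replicate 1. Cav1, the coat protein of caveolae, had 33.1 TPM in replicate 2 and 40.2 TPM in replicate 1, with intervals that overlapped. Adipocytes also carry caveolae, and the 5 adipocyte markers that passed the count filter had a median log2 ratio of 0.00. Their part in Cav1 was not tested. Ehd3, an endocytic recycling protein known as a marker of glomerular endothelium, had 18.12 TPM in replicate 2 and 21.03 TPM in replicate 1, with intervals apart and a log2 ratio of -0.21. It was thus among the higher endothelial genes of this gland.

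Egfl7, a matrix protein secreted by endothelial cells, was lower in replicate 2. It had 26.2 TPM in replicate 2, against 36.0 TPM in replicate 1, and its intervals were apart at a log2 ratio of -0.46. The difference was smaller in the read-derived table, at -0.28, and as a share of counts, at -0.27. Transcripts not annotated as protein-coding took 37.1% of Egfl7 TPM in replicate 2 and 47.0% in replicate 1. The gene (chr2:26580014-26593120, plus strand) is the host of miR-126, the best known miRNA of endothelial cells, and its exons overlap the annotated Mir126a, Mir126b, Agpat2 and Gm20532. Because the use of strand in the counting is not given in the sources used here, reads of these neighbours may be part of the value. The mature miR-126a-3p lies within the gene at chr2:26591402-26591423 on the plus strand, with the RefSeq sequence on GRCm38.p6 given here with its seed, bases 2 to 8, in capitals.
mmu-miR-126a-3p: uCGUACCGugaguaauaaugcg
Levels of the mature miRNA were not analysed here.

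Nos3, the endothelial nitric oxide synthase, had 2.17 TPM in replicate 2 and 2.90 TPM in replicate 1, with intervals apart and a log2 ratio of -0.40. Its exons overlap Atg9b and Gm15587 on the opposite strand. Vwf, the clotting factor stored in endothelial granules, had 2.41 TPM in replicate 2, against 1.62 TPM in replicate 1 (log2 ratio 0.55). Its counts hardly differed, with 316 in replicate 2 and 320 in replicate 1, a ratio of shares of 0.91 (exact 95% interval 0.78 to 1.07). The replicate 1 TPM of Vwf lay below its own deposited interval of 1.67 to 3.05. Transcripts not annotated as protein-coding took 65.0% of Vwf TPM in replicate 2 and 49.1% in replicate 1. Platelet markers, which share the source of some Vwf, summed to 5.51 TPM in replicate 2 against 5.58 TPM in replicate 1, with 1 of 4 detected. In the read-derived table the log2 ratio of Vwf was 0.71, past 1.5-fold. For Vwf the TPM and the share of counts therefore gave opposite directions, and in the gene table it was apart by neither rule.

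Among the 40 genes compared between the libraries, the largest differences were those of the SOX transcription factors. Sox18, which acts in vascular and lymphatic development, had 6.64 TPM in replicate 2, against 11.9 TPM in replicate 1 (391 counts in replicate 2, 650 counts in replicate 1; chr2:181669836-181671640, minus strand). Its log2 ratio was -0.83, and as a share of counts replicate 2 was at 0.56 of replicate 1 (exact 95% interval 0.49 to 0.63). Sox17, a related factor of arterial endothelium, had 1.76 TPM in replicate 2, against 3.08 TPM in replicate 1 (115 counts in replicate 2, 177 counts in replicate 1; chr1:4490931-4497354, minus strand). Its log2 ratio was -0.77, and the ratio of shares was 0.60 (0.47 to 0.76). Both genes were lower in replicate 2 with intervals apart, and Sox18 was at 3.77 times the level of Sox17 in replicate 2 and 3.85 times in replicate 1, so the pair kept its proportion. Sox7, the remaining member of the same SOX subfamily and not one of the 43 genes, had 1.86 TPM in replicate 2, against 2.66 TPM in replicate 1 (log2 ratio -0.49, intervals apart). All 3 genes of the subfamily were thus lower in replicate 2 by the interval rule, and Sox17 and Sox18 also by the 1.5-fold rule. Sox7 was singled out after its values were seen.

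Other transcription factors of endothelium were on both sides of 0. Erg, an ETS factor that maintains endothelial genes, had 4.75 TPM in replicate 2 and 4.33 TPM in replicate 1. Of further endothelial factors, Fli1 had a log2 ratio of 0.40, Ets1 of 0.08, Klf2 of 0.28 and Klf4 of 0.26, and Tal1 had too few counts to be compared. Nr2f2, the factor of venous identity, had a log2 ratio of -0.20. The marker sums of several other cell types were also lower in replicate 2 than in replicate 1: chromaffin cells, skeletal muscle and hepatocytes as given above, and mesothelium at 5.18 TPM in replicate 2, against 8.37 TPM in replicate 1, with 3 of 4 markers detected. Their part in the SOX values was not tested. Sox17 also overlaps the antisense gene Gm37587.

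**Figure D4:**
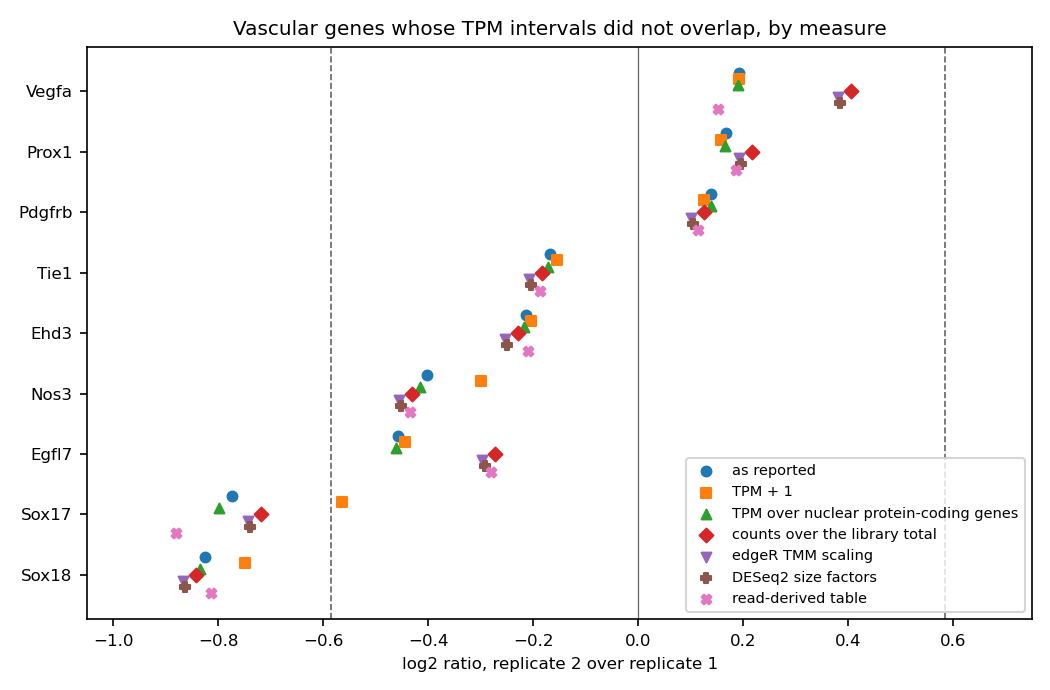
Log2 ratio of replicate 2 over replicate 1 for the 9 vascular genes whose deposited intervals did not overlap, by 7 measures (symbols); dashed lines mark 1.5-fold. No gene crosses 0 under any of the 7 measures, Sox18 stays past the line throughout, and Sox17 falls short of it only with TPM + 1.

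Lymphatic genes were uneven. Prox1, the transcription factor that sets lymphatic identity and that several other cell types also express, had 15.9 TPM in replicate 2 and 14.1 TPM in replicate 1, with intervals apart and a log2 ratio of 0.17. Its exons overlap the antisense gene Prox1os. Lyve1, a hyaluronan receptor of lymphatic capillaries and of some macrophages, had 2.18 TPM in replicate 2, against 1.90 TPM in replicate 1. Pdpn, a lymphatic and mesothelial glycoprotein, had 1.55 TPM in replicate 2 and 1.79 TPM in replicate 1. Prox1 was at 7.28 times the level of Lyve1 in replicate 2 and 7.44 times in replicate 1. Of 5 further lymphatic genes 2 were detected: Itga9, an integrin subunit (24.7 TPM in replicate 2, 18.5 TPM in replicate 1), and the transcription factor Foxc2 (1.48 TPM in replicate 2, 1.09 TPM in replicate 1). The others, which mark lymphatic vessels more narrowly, were lower. Ccl21a, the chemokine of lymphatic endothelium, had 0.83 TPM in replicate 2 and 1.07 TPM in replicate 1. Reln had 0.76 TPM in replicate 2, against 0.59 TPM in replicate 1, and Mmrn1 had 0.15 TPM in replicate 2, against 0.20 TPM in replicate 1. The level of Prox1 was thus far above those of Lyve1, Pdpn, Ccl21a, Reln and Mmrn1 in the same libraries. Macrophage markers, beside which Lyve1 must be read, summed to 43.6 TPM in replicate 2, against 42.7 TPM in replicate 1, and 5 of 5 were detected.

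The 4 pericyte genes were all detected, with none apart by either rule, beside 3.57% and 15% of all 12280 genes compared. Rgs5, a regulator of G protein signalling enriched in pericytes, had 11.6 TPM in replicate 2 and 11.2 TPM in replicate 1. Mcam, the adhesion molecule CD146 shared by pericytes and endothelium, had 9.32 TPM in replicate 2, against 11.2 TPM in replicate 1. Cspg4, the NG2 proteoglycan, had 2.96 TPM in replicate 2 and 2.65 TPM in replicate 1. Notch3, the Notch receptor of mural cells, had 2.46 TPM in replicate 2, against 2.43 TPM in replicate 1. Of the 4, 3 were slightly higher and Mcam lower in replicate 2, though Notch3 turned with TMM and DESeq2 scaling and Cspg4 in the read-derived table.

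Smooth muscle genes ranged from well expressed to barely counted. Tagln, an actin-binding protein, had 27.5 TPM in replicate 2, against 30.5 TPM in replicate 1, and its exons overlap Pcsk7 and Gm48529 on the opposite strand. Acta2, smooth muscle actin, had 8.57 TPM in replicate 2, against 9.35 TPM in replicate 1. Its coding sequence is nearly the same as that of other actins, and the part of shared reads in its value was not tested. Myh11, the myosin heavy chain of mature smooth muscle, had 1.34 TPM in replicate 2 and 1.35 TPM in replicate 1. Cnn1, calponin, had 0.46 TPM in replicate 2 and 0.19 TPM in replicate 1, on 13 counts in replicate 2 and 8 counts in replicate 1. The genes of mature contractile muscle were thus the lowest of the group. The ratio of Tagln to Acta2 was 3.20 (replicate 2) and 3.26 (replicate 1), but by read-derived TPM only 1.74 (replicate 2) and 1.76 (replicate 1). Tagln was above Acta2 either way, by a margin that depended on the quantification. The order of Acta2 and Rgs5 turned with the quantification: Acta2 was at 0.74 of Rgs5 in replicate 2 and 0.84 in replicate 1, but in the read-derived table at 1.18 in replicate 2 and 1.29 in replicate 1.

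A further 16 mural genes, not among the 43, were measured, of which 12 were detected. Of the 12 that passed the count filter, 2 were past 1.5-fold, both lower in replicate 2, beside 3.57% of all 12280 genes compared. Tpm2, a tropomyosin, had 21.2 TPM in replicate 2 and 43.0 TPM in replicate 1. Des, the intermediate filament of muscle and pericytes, had 5.66 TPM in replicate 2, against 11.7 TPM in replicate 1. Both are also expressed in skeletal muscle, whose markers were almost absent in replicate 2 (Acta1 1.11 TPM, against 97.6 TPM in replicate 1), and the part of skeletal muscle in their values was not tested. The log2 ratio was -1.03 for Des and -1.02 for Tpm2. Next to Tpm2, Cald1 and Myl9 had the highest means of these genes. Myl9, a myosin light chain, had 17.1 TPM in replicate 2 and 17.0 TPM in replicate 1. Cald1, caldesmon, had 15.2 TPM in replicate 2, against 19.8 TPM in replicate 1.

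Further lists placed the 43 genes in a wider setting. Of 22 other endothelial genes 20 were detected in both libraries. Of the 21 that passed the count filter, none was past 1.5-fold, beside 3.57% of all 12280 genes compared, and 5 had intervals apart, beside 15%. Their highest by mean were Cavin1 (93.1 TPM in replicate 2, 92.0 TPM in replicate 1), a caveolar coat protein that adipocytes also make, then Aqp1 (13.7 TPM in replicate 2, 16.2 TPM in replicate 1), a water channel, and Ramp2 (12.01 TPM in replicate 2, 16.12 TPM in replicate 1), a subunit of the adrenomedullin receptor. Tal1 (0.73 TPM in replicate 2, 0.52 TPM in replicate 1) and Myct1 (0.91 TPM in replicate 2, 1.32 TPM in replicate 1) were under the detection level. Of 12 arterial genes 8 were detected, led by mean by Notch4 (6.11 TPM in replicate 2, 7.68 TPM in replicate 1), Notch1 (5.32 TPM in replicate 2, 4.75 TPM in replicate 1) and Jag1 (4.13 TPM in replicate 2, 3.69 TPM in replicate 1). Of 6 venous genes 4 were detected, led by mean by the transcription factor Nr2f2 (30.2 TPM in replicate 2, 34.8 TPM in replicate 1), which stromal and steroid-lineage cells can also express, then Ephb4 (18.1 TPM in replicate 2, 16.9 TPM in replicate 1) and Aplnr (6.07 TPM in replicate 2, 6.33 TPM in replicate 1). Of the 7 arterial and 4 venous genes that passed the count filter, none was past 1.5-fold or had intervals apart. Over all 12280 genes compared these shares were 3.57% and 15%.

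Vessel types of other organs left different traces. Of 5 blood-brain barrier genes 4 were detected: the transporters Abcg2 (8.16 TPM in replicate 2, 7.77 TPM in replicate 1) and Slc2a1 (6.01 TPM in replicate 2, 5.65 TPM in replicate 1) and the junction protein Ocln (4.37 TPM in replicate 2, 3.62 TPM in replicate 1), all of which epithelial or other cells can express, and Mfsd2a, with a mean of 1.84 TPM. The barrier-restricted transporter Slco1c1 had 0.10 TPM in replicate 2 and 0.04 TPM in replicate 1. Of 6 liver-type sinusoid genes only Stab1, a scavenger receptor that macrophages share, was detected (18.7 TPM in replicate 2, 19.3 TPM in replicate 1). Stab2, its sinusoid-restricted relative, had 0.12 TPM in both libraries, and Clec4g was listed at 0 in both, where a count of 0 allows up to 3 counts in either library.

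Among 27 other growth factors and receptors 17 were detected. Of the 18 that passed the count filter none was past 1.5-fold, beside 3.57% of all 12280 genes compared. Angptl4 and Ednra, 2 of the 18, had intervals apart, beside 15%. The highest by mean were Plxnd1 (42.5 TPM in replicate 2, 46.6 TPM in replicate 1), a semaphorin receptor of endothelium, Fgfr1 (32.2 TPM in replicate 2, 29.7 TPM in replicate 1) and Angptl4 (19.0 TPM in replicate 2, 24.8 TPM in replicate 1), a secreted inhibitor of lipoprotein lipase. Vegfd, the second ligand of Flt4, was above Vegfc, with 18.0 TPM in replicate 2 and 17.3 TPM in replicate 1. Prok1, an angiogenic factor known as the endocrine-gland-derived VEGF from human steroid-producing tissue, had 0.34 TPM in replicate 2, against 0.18 TPM in replicate 1, and Prok2 was listed at 0 in both. Vegfd, Prok1 and Prok2 were named after their values were seen. Of 7 genes of the hypoxia response, which is known to act on Vegfa, 6 were detected. Epas1, which encodes HIF-2 alpha, had the highest mean, with 50.1 TPM in replicate 2 and 46.7 TPM in replicate 1, followed in order of mean by Arnt (20.7 TPM in replicate 2, 20.4 TPM in replicate 1) and Hif1a (20.2 TPM in replicate 2, 19.6 TPM in replicate 1), with Egln1 close to Hif1a (19.5 TPM in replicate 2, 20.2 TPM in replicate 1). The only one of the 7 past 1.5-fold was Hif3a, with 0.48 TPM in replicate 2 and 0.98 TPM in replicate 1, whose log2 ratio of -0.90 was 0.19 in the read-derived table.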

How the data were processed

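The tables were made by the authors. Per the file headers, the deposited gene tables and alignment-derived transcript tables hold an expected count, TPM and the bounds of a TPM interval, read here as a signal of unstated level. The deposited read-derived transcript tables hold an estimated count and TPM. Per the text beside the deposited files, both used mm10 and GENCODE M21. The sources used here give no aligner, version or use of strand. TPM sums to a fixed total over all entries, noncoding RNA included.

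The 43 genes and all lists were chosen with earlier results of these data known. Genes were matched by symbol through the transcript identifiers. Coordinates, coding lengths and junctions came from GENCODE M21, since the identifiers held no coding length, although the design had assumed so. Detection was 1 TPM in both libraries. Ratios used TPM + 0.1 and genes with 200 or more summed counts. Exact 95% intervals of count shares are Clopper-Pearson, and 3 counts are the limit behind a 0; both cover counting error only. With 1 group of 2 libraries no test was made. The ratio rule was tested on simulated counts that held only known changes and counting error. That check does not cover other spread between libraries. Exons of 10 of the 43 genes (Egfl7, Eng, Sox17, Prox1, Nos3, Angpt1, Notch3, Mcam, Tagln, Nrp1) overlap another gene, and these values are uncertain.

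Named by rule were the leader of each role group, genes under 1 TPM and genes apart by either rule; of the further lists, the 3 highest, any past 1.5-fold and absent members. Other values complete a group. Alternatives were 0.5 and 2 TPM, 2-fold, TPM + 1, count filters of 50 and none, TPM over protein-coding genes, edgeR 4.0.16 TMM scaling, DESeq2 1.42.0 size factors on rounded counts (R 4.3.3), the read-derived table, each library alone and, chosen after seeing the data, counts over the library total and coding transcripts alone. Python 3.11.15, numpy 2.4.6, pandas 2.3.3, scipy 1.17.1 and matplotlib 3.10.9 were used.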

Additional observations from a re-analysis of the deposited data

How the results depend on the processing

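The number of detected genes, 40, was 41 at 0.5 TPM, 34 at 2 TPM, 41 in the read-derived table and 40 in either library alone. The number past 1.5-fold, 2 of 40, became 0 at 2-fold, beside 0.90% of all genes compared. It was 1 with TPM + 1 (Sox18), beside 1.84%. With no count filter it was 4 of 43 (Cnn1, Pgf, Sox17, Sox18), beside 8.68%. The read-derived table gave 3, adding Vwf, beside 4.02%. The other measures gave Sox17 and Sox18, beside 2.73% to 6.81%. The median log2 ratio ranged from -0.05 to 0.02. Directions differed from those reported for 6 of 43 genes in the read-derived table, 5 under TMM scaling, 3 under DESeq2 size factors and 2 for counts over the library total, none of them among the 9 with intervals apart. For those 9 the log2 ratio ranged, for example, from -0.88 to -0.56 for Sox17, from -0.87 to -0.75 for Sox18, from -0.46 to -0.27 for Egfl7 and from 0.15 to 0.41 for Vegfa.

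The 164-residue share of Vegfa, 36.2 ± 2.25% (SD, n = 2), was 32.3% in the read-derived table, 61.7% of expected counts and 61.1% of coding transcripts. Among coding transcripts the 120-residue share was 20.2% (12.3% of all) and the 188-residue share 18.7% (11.4% of all). The share without coding sequence, 40.1%, was 11.3% of expected counts. For Flt1 the full-length share, 53.0%, was 59.9% in the read-derived table and 62.4% of expected counts, the shorter share, 29.5%, was 33.0% and 31.7%, and the share without coding sequence, 17.5%, was 7.13% and 5.92%. Short transcripts weigh more in TPM than in counts by construction. Levels were 1.29 (Tagln) to 2.45 (Pdpn) times higher in the read-derived table, so levels are not comparable across tables. Other causes were not tested. No paired analysis was possible because there is 1 group.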
